A study of Homo sapiens with 9 samples.

Results

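Parental IGROV-1 cells, the cisplatin-sensitive ovarian carcinoma line from which a pair of platinum-resistant variants were raised, were described on their own. Gene expression had been measured on Illumina bead arrays, on which a fluorescent signal is read for each short oligonucleotide probe. Of 9 arrays in the series, the 3 titled as parental IGROV-1 were used, each from a sample described as independent. The other 6 arrays, 3 from IGROV-1/Pt1 and 3 from IGROV-1/OHP, were not compared with them. The parental cells were untreated as far as the labels say, were harvested with trypsin while growing exponentially and were frozen as pellets. They are 1 established cell line in culture, without the other cells of a tumour, so the values describe this line and the spread between 3 of its samples. A total of 18852 genes were ranked by their mean log2 intensity over the 3 arrays, with the probe of the highest mean standing for a gene.

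A carcinoma cell line keeps part of the transcription programme of the epithelium from which it arose. In the female reproductive tract, the transcription factors PAX8 and SOX17 belong to the Mullerian duct lineage, whereas WT1 marks the ovarian surface, the mesothelium and many serous tumours. Keratins, the adhesion molecule EPCAM and E-cadherin mark epithelium, and membrane receptors, drug pumps, solute carriers and metabolic enzymes set what the cell can sense, take up, expel and make.

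The ceiling of background was taken from probes for olfactory receptors, genes of the nasal epithelium that are not expected in these cells. Of 1350 such values (450 probes on 3 arrays), 2.5% exceeded an intensity of 331, which is 8.37 on the log2 scale. A gene was counted as above background when its probe exceeded this ceiling on all 3 arrays, and as at background when it did so on none. Above background were 9663 genes (51.3% of those measured), and at background were 8329 (44.2%). The other 860 (4.56%) exceeded the ceiling on 1 or 2 arrays and fell in neither class. Each count of list members below is to be read beside the 51.3%, and a share near it does not set a list apart. That share rests on the brightest probe of each gene. It was 47.4% among genes with only 1 probe and 39.7% where the dimmest probe stood for a gene. The class edge was fine: NFIB, PARG and XPNPEP2 had a lowest array of 8.37 and were counted as above, and RTKN2, TBXAS1 and ZBTB10 had a highest array of 8.37 and were counted as at background. Each unit of log2 stands for a 2-fold difference in intensity, and every ± below is the SD over n = 3 arrays. The signal of a probe depends on its sequence as well as on the amount of RNA, so levels of different genes are placed in a ranking of probe signals but are not compared in size.

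**Figure D1:**
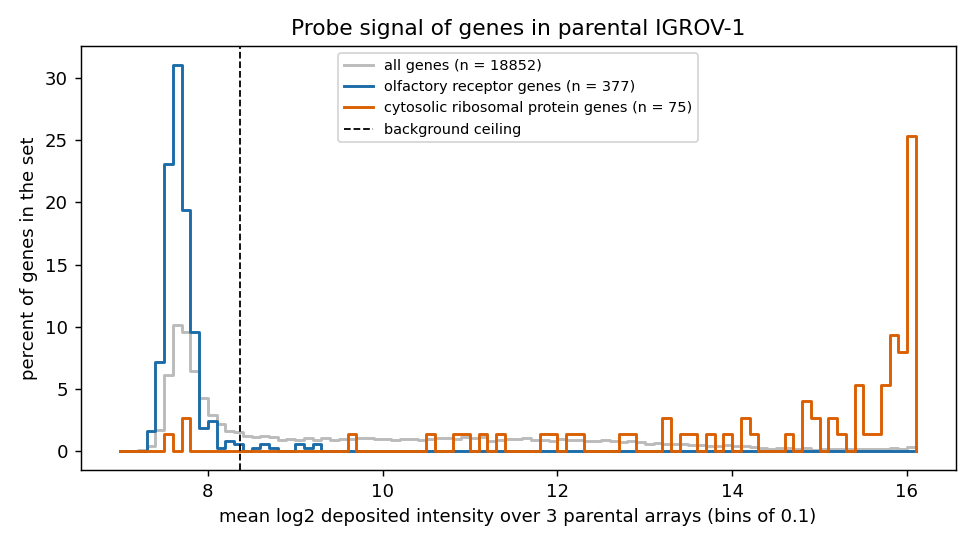
Mean log2 intensity of each gene over the 3 parental arrays (x axis, bins of 0.1) against the percent of genes in each set (y axis) for all 18852 genes, olfactory receptor genes and cytosolic ribosomal protein genes, with the ceiling of 8.37 as a dashed line. Olfactory receptor genes gather below the ceiling and ribosomal protein genes near the upper end of the scale, while all genes together form a peak below the ceiling and a long tail above it.

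The median intensity of the 3 arrays lay between 228.2 and 228.34, and 10049, 10136 and 10074 genes exceeded the ceiling on arrays 1, 2 and 3. The deposited values had already been brought to 1 distribution, so these near-equal figures are set by the normalization and say nothing of how alike the samples were. Across all 48803 probes, which are not independent replicates, Pearson's correlation was 0.988 between arrays 1 and 2. It was 0.991 for arrays 1 and 3 and 0.986 for arrays 2 and 3. Mean levels of all genes had a median of 8.66, and those of genes above background a median of 11.14 with a median SD of 0.22.

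Of the first 100 genes of the ranking, 27 belong to the cytosolic ribosomal protein list, 7 to the respiratory chain list and 4 to the glycolysis list, and 52 are in any list. The first 20 genes were COX4I1, TMSB10, RPL38, ITIH5, GAPDH, RPL19, RPS10, RPL18, CLUAP1, TUBA1B, RPL32, FARSB, SLC7A5P2, SNRPD2, ATP5F1B, RPL13AP20, F2R, RPS25, FTL and RPL6, with means from 16.06 to 16.08. These means spanned 0.026, less than the largest SD among them of 0.0458, and the highest value on any array was 16.12, so the 20 genes have no order among themselves. COX4I1, a subunit of cytochrome c oxidase, read 16.09, 16.09 and 16.07 on arrays 1, 2 and 3. GAPDH, the glycolytic enzyme often used as a reference, read 16.10, 16.09 and 16.03, and all 3 of its probes were above background. FTL, the light chain of the iron store ferritin, read 16.07, 16.08 and 16.03. All 3 genes gave nearly the same signal on every array, at the upper end of the scale. There, 44 genes had means within 0.1 log2 units of the highest value. Since the arrays had also been brought to 1 distribution, a small SD there says little of how steady the RNA was.

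Of the 20 genes, 7 encode cytosolic ribosomal proteins. Messenger RNAs of this family are known to start with a C followed by an unbroken run of C and T (a terminal oligopyrimidine tract), by which their translation is controlled together. The bases around the annotated start of those 7 genes are shown for this reason, from RefSeq (GRCh38.p14), on the coding strand, from 20 bases before the start to the tenth base from it. Capitals mark the unbroken run of C and T that covers the start.
RPL38 (chr17:74203658-74203687, plus strand): ccggaaacggaagtctcgTTCTTTTTCgtc
RPS10 (chr6:34426060-34426089, minus strand): cagcaccgcgcatgCTCCTTCCTTTCCagc
RPL18 (chr19:48619169-48619198, minus strand): cgcccaccccagcccgTTCTCTCTTTCCgg
RPS25 (chr11:119018334-119018363, minus strand): ccgtttctgagcagcgCTTCCTTTTTgtcc
RPL6 (chr12:112411433-112411462, minus strand): cattgtatttgtatcctcagTgaatcagaa
RPL19 (chr17:39200263-39200292, plus strand): gggtttgggctctccccttcgcagataatg
RPL32 (chr3:12841556-12841585, minus strand): cccaggggttacgacccatcagcccttgcg
The run was 9 bases long in RPL38, 13 in RPS10, 12 in RPL18 and 10 in RPS25. It was a single base in RPL6, and the annotated start of RPL19 and RPL32 was neither C nor T. An annotated start can lie some bases away from the start used in these cells, which was not measured.

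Over the family, 72 of 75 measured cytosolic ribosomal protein genes were above background, with a median level of 15.57. Proteasome subunits, which degrade tagged proteins, were above in 32 of 35, and all 17 reference housekeeping genes were above. These 3 groups served as a check that genes every cell uses gave a signal on these arrays.

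Of 27 measured genes of Mullerian epithelium and ovarian carcinoma, 14 were above background, 10 were at background and 3 were in neither class, so that the share above (51.9%) was close to the 51.3% of all genes, and single genes are described for their own values. PAX8 read 13.64, 14.22 and 13.67 (13.85 ± 0.33). FOLR1, the folate receptor of ovarian carcinoma cells, read 13.57, 14.30 and 13.90 (13.92 ± 0.36). SOX17 read 12.41, 12.38 and 12.76 (12.52 ± 0.21). These genes were above background by more than 4 log2 units on every array by their brightest probe. All 3 probes for PAX8 and all 3 for FOLR1 were above the ceiling, but the dimmest had means of only 8.88 and 9.14.

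SPP1, the secreted matrix protein osteopontin, read 16.10, 15.31 and 15.81, and both of its probes were above. MECOM, a transcription factor of an amplified region in ovarian cancer, had a mean of 14.83 ± 0.15 from 1 probe, while its other probe was at background with 7.79. KLK11, a secreted kallikrein peptidase, had a mean of 13.86 ± 0.38 from 1 of 2 probes.

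Other genes by which ovarian carcinoma is often recognised gave little or no signal. WT1 read 8.0, 7.74 and 7.98, the estrogen receptor ESR1 read 7.70, 7.63 and 7.66, and the progesterone receptor PGR read 7.68, 7.66 and 7.63. All were at background on every array. MUC16, the mucin that carries the CA125 antigen, read 8.34, 8.45 and 8.57. MSLN, the surface protein mesothelin, read 8.30, 8.39 and 8.08. Both straddled the ceiling, and their class depends on where it is set: with a ceiling exceeded by 5% of olfactory receptor values both were above background, and with one exceeded by 1% both were at background. EMX2 and LHX1, developmental factors of the reproductive tract and kidney, were at background. The values of ESR1, PGR, MUC16 and MSLN each rest on a lone probe, since brightest and dimmest probe gave the same level. In bulk RNA, few cells that express a gene and little of its RNA in each cell cannot be told apart. WFDC2, HOXA9, HOXA10 and HOXA11 are not analysed here.

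Of 39 epithelial genes, 22 (56.4%) were above background, close to the 51.3% of all genes, and among them were KRT19, CLDN1 and EPCAM. KRT19, a keratin of simple epithelia, read 15.94, 16.03 and 15.96 (15.98 ± 0.04). EPCAM read 14.28, 14.02 and 14.61 (14.30 ± 0.29), with a second probe above background at 8.87. CLDN1, a tight junction claudin, read 15.70, 14.63 and 15.05. All 3 genes were far above the ceiling on each array, although CLDN1 differed between arrays 1 and 2 by more than 1 log2 unit.

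The keratin pair KRT8 and KRT18, which form the filaments of simple epithelia together, lay close to the ceiling. KRT8 read 9.21, 8.98 and 8.57, and KRT18 read 8.92, 8.37 and 8.93 and fell in neither class. KRT7, found in ductal and Mullerian epithelia, read 11.96, 11.84 and 11.08. KRT7 was thus well above background on every array, KRT8 narrowly so, and KRT18 was not above it on array 2. Over the keratin family only 8 of 48 genes were above, among them KRT24 at 15.13 ± 0.20 and KRT10 at 13.12 ± 0.35, both better known from skin.

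CDH1, which encodes E-cadherin, read 9.49, 9.05 and 9.51 (9.35 ± 0.26), and CDH2, which encodes N-cadherin, read 8.28, 8.02 and 8.13 and was at background. The highest cadherin signal came from CDH17, a cadherin of liver and intestine, with 13.28 ± 0.32, followed by the kidney cadherin CDH16 with 12.03 ± 0.30. Cadherins were above background in 5 of 21 and claudins in 10 of 22. OCLN, the tight junction protein occludin, was at background with both of its probes.

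**Figure D2:**
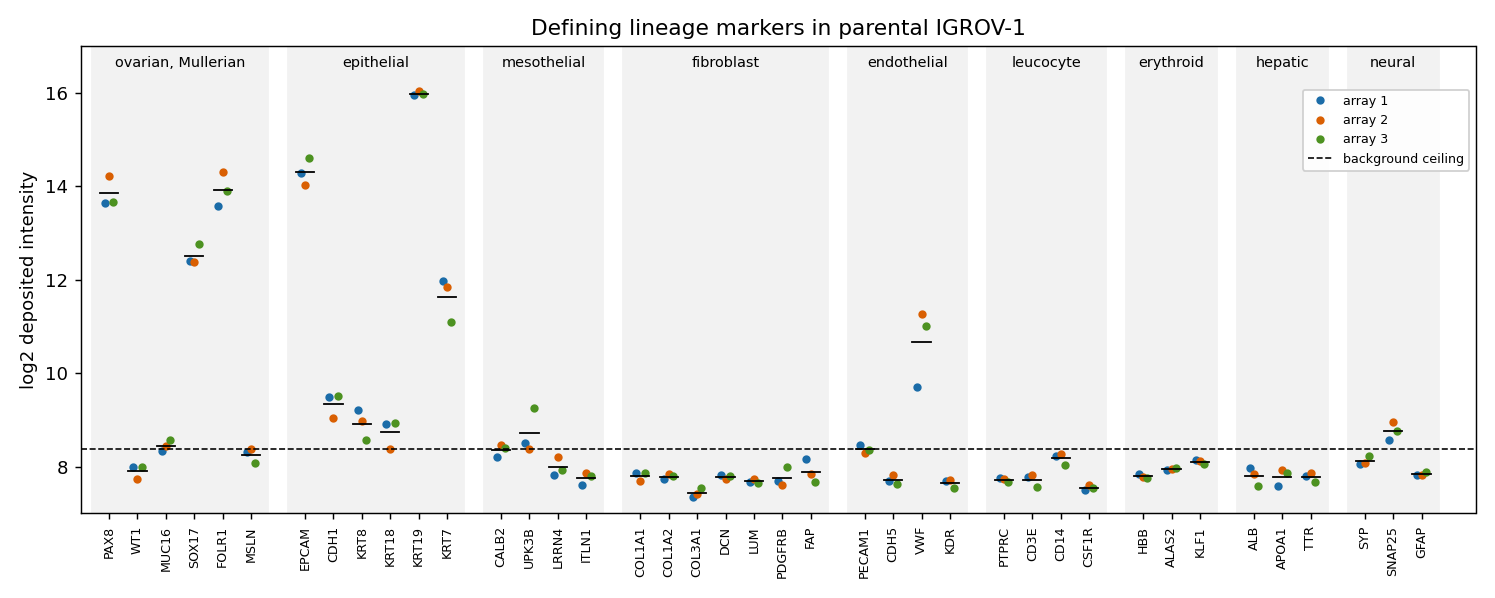
Log2 intensity (y axis) of the defining markers of 9 cell types (x axis, shaded by cell type) on parental arrays 1, 2 and 3 (points), with the mean as a short line and the ceiling of 8.37 as a dashed line. PAX8, SOX17, FOLR1, EPCAM, KRT19 and KRT7 stand far above the ceiling, while WT1 and the markers of fibroblasts, leucocytes, erythroid cells and liver lie at or below it.

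Mesenchymal genes were split. VIM, the intermediate filament vimentin, read 15.71, 14.77 and 15.23 (15.24 ± 0.47), and S100A4, a calcium-binding protein of motile cells, read 16.00, 15.89 and 15.99. COL6A1, a chain of collagen VI, had a mean of 13.56 ± 0.44, and ACTA2, smooth muscle actin, one of 11.97 ± 0.04. In contrast, the fibroblast markers COL1A1, COL1A2, COL3A1, DCN, LUM, PDGFRB and FAP were all at background, with means between 7.44 for COL3A1 and 7.89 for FAP. FN1, which encodes fibronectin, and ZEB1, ZEB2 and SNAI2, repressors of E-cadherin, were also at background. Over the list, 12 of 31 genes were above, 7 of them with every probe.

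Of 10 mesothelial genes, 1 was above background: UPK3B, a plaque protein also made by urothelium, which read 8.51, 8.39 and 9.25 and had 2 of its 5 probes above. The count was 2 without array 1, 3 without array 2, 5 with a ceiling exceeded by 5% of olfactory receptor values and 0 with one exceeded by 1%. CALB2 (calretinin) fell in neither class and LRRN4 was at background.

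Defining markers of other cell types were mostly at background. Endothelial genes were above in 2 of 12, leucocyte genes in 2 of 18, erythroid in 1 of 16, neural in 4 of 21, liver in 4 of 20, gut in 2 of 14 and muscle in 3 of 16. With a ceiling exceeded by 5% of olfactory receptor values the endothelial, leucocyte, erythroid and neural counts were 4, 4, 3 and 7. VWF, the endothelial clotting factor carrier, had a mean of 10.66 ± 0.83 and was lowest on array 1 at 9.71, whereas CDH5 and KDR, the endothelial cadherin and VEGF receptor, were at background. CD68, a lysosomal protein of macrophages, had a mean of 12.20 ± 0.31, whereas the pan-leucocyte gene PTPRC was at background with all 4 of its probes. LBP, the liver protein that binds lipopolysaccharide, read 14.49, 13.70 and 13.82, whereas ALB, APOA1 and TTR, which encode albumin and other plasma proteins, were at background. In the endothelial, leucocyte and liver lists a gene far above the ceiling stood beside defining markers at background. The neural, gut and muscle lists also held a gene far above the ceiling, with highest means of 12.18, 13.28 and 14.27.

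The 1 erythroid gene above background was HBA2, an alpha chain of haemoglobin, with 15.59, 15.89 and 15.71 (15.73 ± 0.15). Its second probe had a mean of 15.23 ± 0.13. The beta chain gene HBB read 7.84, 7.78 and 7.76, and ALAS2 and KLF1, the erythroid heme enzyme and transcription factor, were at background. HBA2 was high on all 3 arrays and its partner chain on none. HBA1 is nearly identical in sequence to HBA2, and the probe signals cannot be assigned to one of them.

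Genes of tissue identity and of stem cells completed the lineage description. HOX genes, which give cells their position along the body axis, were above background in 19 of 29, with HOXB7 (14.11 ± 0.18), HOXB5 (13.51 ± 0.15), HOXB8 (12.58 ± 0.11) and HOXB6 (11.44 ± 0.23) among the highest. CD44, the hyaluronan receptor, read 15.79, 15.69 and 15.57, and all 3 of its probes were above. SOX9, a factor of ductal progenitors, read 11.24, 10.27 and 10.18, so array 1 was the highest. POU5F1 and NANOG, factors of pluripotent cells, were at background, and 7 of 16 genes of the pluripotency and stem cell list were above.

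Receptor tyrosine kinases, which pass growth factor signals across the membrane, were above background in 22 of 52, but in only 11 of them with every probe. FGFR3, a fibroblast growth factor receptor, read 14.36, 14.70 and 14.36 (14.47 ± 0.20), the highest probe signal of the family, while its other probe was at background with 8.11. FGFR4 had a mean of 12.89 ± 0.28. RYK, a WNT co-receptor, had 12.48 ± 0.30 with all 3 probes above. MST1R, the receptor for macrophage-stimulating protein, read 12.34, 12.57 and 12.09.

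Members of the ERBB family differed in how many of their probes gave a signal. ERBB2 read 12.77, 13.29 and 12.76 (12.94 ± 0.30) from 1 probe, with its other 2 at background (7.99 and 7.79). ERBB3, its signalling partner, read 12.52, 11.77 and 12.17 (12.15 ± 0.38), with 2 of 3 probes above. EGFR read 10.67, 10.71 and 10.29 (10.56 ± 0.23) from 1 of 4 probes. ERBB2 was highest on array 2 and ERBB3 lowest there, and the value of each receptor rests on its brightest probe.

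MET, the receptor for hepatocyte growth factor, read 10.82, 11.14 and 10.92 (10.96 ± 0.16). IGF1R, the receptor for insulin-like growth factor, read 8.76, 8.55 and 8.81, close to the ceiling, and was at background where the ceiling was the level exceeded by 1% of olfactory receptor values. AXL read 8.14, 8.19 and 8.02 and was at background with both of its probes. INSR and KIT, the receptors for insulin and stem cell factor, were at background as well.

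**Figure D3:**
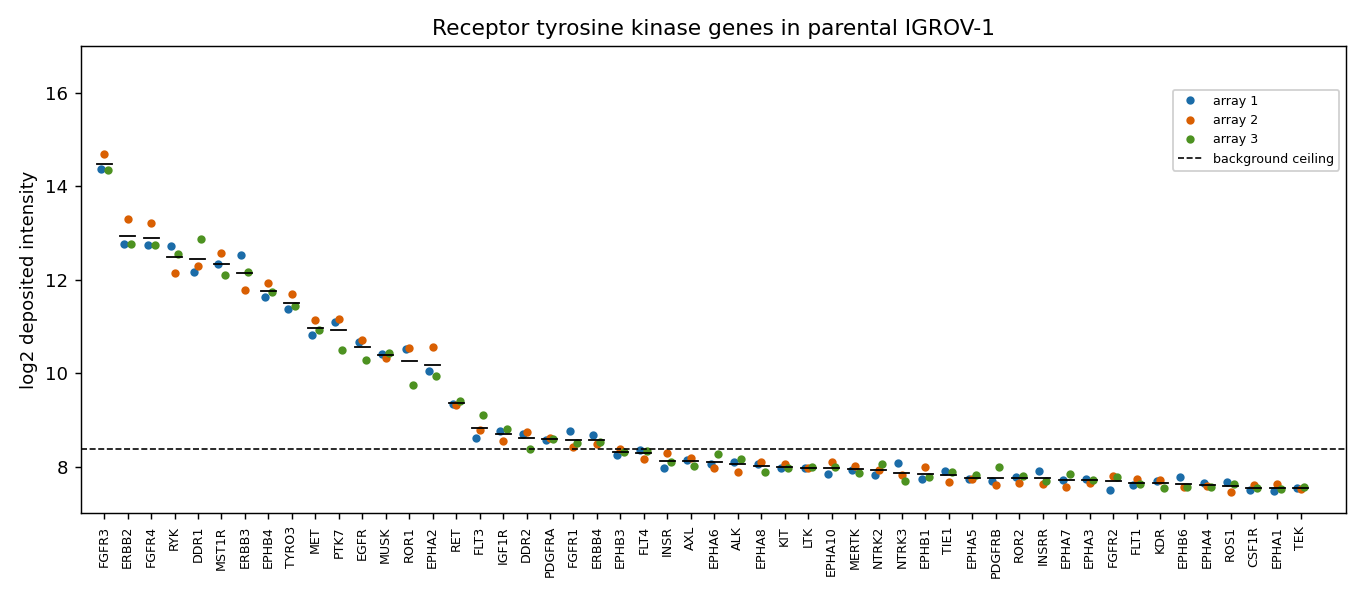
Log2 intensity (y axis) of 52 receptor tyrosine kinase genes (x axis, ordered by mean) on parental arrays 1, 2 and 3 (points), with the mean as a short line and the ceiling of 8.37 as a dashed line. FGFR3 leads with a mean of 14.47, signals fall to the ceiling over the first 22 genes, and AXL, INSR and KIT lie below it.

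Among nuclear receptors, transcription factors switched by steroids, retinoids and lipids, 17 of 40 were above background and 9 of these with every probe. RXRA, the shared partner of many of them, had a mean of 12.97 ± 0.17. ESRRA, an orphan receptor of mitochondrial genes, had 11.91 ± 0.30, and RARA, a retinoic acid receptor, had 11.80 ± 0.32 from 1 of 3 probes. PPARG, the receptor of fat cell differentiation, read 9.21, 9.0 and 8.80 from 1 of 4 probes, and NR3C1, the glucocorticoid receptor, read 8.14, 7.81 and 7.91 and was at background with 3 probes. With ESR1 and PGR, NR3C1 was thus at background on every array.

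For the TGF-beta and BMP group, 8 of 14 receptors were above. TGFBR2, the type II receptor for TGF-beta, read 13.79, 13.07 and 13.92 with all 4 probes above, while TGFBR1, its type I partner, read 7.80, 7.77 and 8.01 on its only probe. One partner was thus far above background and the other at it. ACVR1B, an activin receptor, had a mean of 13.31 ± 0.35 from 1 of 4 probes, and BAMBI, a decoy receptor of the pathway, had 12.97 ± 0.14.

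Receptors of the WNT, Notch and Hedgehog pathways were above background in 14 of 21. LRP5, a WNT co-receptor, had a mean of 12.26 ± 0.39, FZD4 and FZD9, WNT receptors, had 12.24 ± 0.32 and 12.11 ± 0.46, and NOTCH1 had 11.73 ± 0.25. SMO, the Hedgehog signal transducer, was at background. Cytokine and interferon receptors were above in 20 of 37 (54.1%), close to the 51.3% of all genes. They were led by IFNGR2 (13.66 ± 0.19), IL10RB (12.59 ± 0.18) and IL13RA1 (12.57 ± 0.30), chains of shared or widely expressed receptors. Of TNF family receptors, 11 of 25 were above, and TNFRSF21, TNFRSF14, TNFRSF10B (a receptor for the death ligand TRAIL) and TNFRSF1A had means of 15.19 ± 0.21, 13.88 ± 0.19, 13.66 ± 0.44 and 13.61 ± 0.33.

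Integrins, the receptors for extracellular matrix, were above background in 12 of 26 (46.2%), against 51.3% of all genes. ITGB1, the common beta chain, read 15.67, 15.71 and 15.16, with 2 of 4 probes above, and ITGB4, the laminin-binding chain of epithelia, had a mean of 14.46 ± 0.44. ITGB5, ITGA3 and ITGA5 had means of 13.92 ± 0.16, 13.04 ± 0.52 and 12.89 ± 0.29.

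Receptors coupled to G proteins were mostly at background. Receptors for lysophospholipids and prostaglandins were above in 2 of 18 (LPAR2 at 10.27 ± 0.32 and S1PR3 at 9.27 ± 0.19), chemokine receptors in 4 of 19, and receptors for transmitters and hormones in 13 of 40. F2R, the thrombin receptor, read 16.04, 16.07 and 16.07, and its second probe had a mean of 9.62 ± 0.66. CCR6, a chemokine receptor of lymphocytes, read 15.92, 16.05 and 16.06, but its other 2 probes were at background with 8.19 and 7.60. CXCR4 was at background with all 3 of its probes. The CCR6 signal therefore came from 1 probe alone.

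Of 50 growth factors and ligands, 22 were above background. GDF15, a stress-induced member of the TGF-beta family, read 14.99, 13.72 and 13.73, with array 1 above the other 2 by more than 1 log2 unit. MST1, the ligand of MST1R, had a mean of 13.97 ± 0.18. WNT7A, a ligand of the female reproductive tract, had 13.12 ± 0.19, and FGF18, a fibroblast growth factor, had 12.92 ± 0.41 with both probes above. VEGFB and the Notch ligand JAG2 had 12.87 ± 0.29 and 12.10 ± 0.51. EGF, NRG1, IGF1 and IGF2, ligands of the ERBB and insulin-like growth factor receptors, were at background, NRG1 with all 7 of its probes.

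ATP-driven drug efflux pumps belong to the ABC family. Of its measured genes, 20 of 41 (48.8%) were above background, close to the 51.3% of all genes. ABCC3, a pump for conjugated organic anions, read 14.60, 14.34 and 13.95 (14.29 ± 0.33). ABCB1, the multidrug efflux pump P-glycoprotein, read 12.43, 13.17 and 13.21 (12.94 ± 0.44), and its second probe had a mean of 11.38 ± 0.41. ABCC5, a pump for nucleotide analogues, had 12.29 ± 0.32. By contrast, ABCC2, another organic anion pump, read 8.22, 8.16 and 8.03, and ABCG2, the breast cancer resistance protein, read 7.54, 7.49 and 7.36. Both were at background on all 3 arrays, while ABCB1 and ABCC3 were above it on all 3. ABCE1 and ABCF1, members without a membrane part that act on ribosomes, had means of 13.37 ± 0.19 and 13.23 ± 0.14.

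Metal handling genes, of interest in platinum-sensitive cells because copper carriers have been linked to platinum transport, were above background in 30 of 47. SLC31A1, the copper importer CTR1, read 11.38, 9.97 and 11.34 (10.90 ± 0.80), with array 2 the lowest by more than 1 log2 unit. ATP7B, a copper exporting ATPase, read 13.87, 13.04 and 13.38 (13.43 ± 0.42) from 1 probe, while its other probe was at background with 8.13. ATP7A, the related exporter, read 9.21, 8.93 and 9.08. Importer and both exporters were above the ceiling on every array. COX17, a copper chaperone of mitochondria, had a mean of 14.08 ± 0.09, and TFRC, the transferrin receptor, one of 14.39 ± 0.43.

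Metallothioneins, small proteins that bind zinc and copper, were uneven. MT1X read 11.14, 11.79 and 11.84, and MT2A read 10.98, 11.16 and 10.79, whereas MT1E read 7.64, 7.62 and 7.68 and MT1G read 7.73, 8.13 and 7.68. MT1X and MT2A were above the ceiling on every array and MT1E and MT1G on none. Genes of this family are close in sequence, and a probe for one may also catch another.

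Solute carriers, the largest transporter family, were above background in 185 of 371 (49.9%), close to the 51.3% of all genes. The mitochondrial phosphate carrier SLC25A3 read 15.60, 15.61 and 15.61, and SLC25A5, which exchanges ADP and ATP, had a mean of 15.52 ± 0.37. SLC16A12, a creatine carrier, had 15.10 ± 0.39 from 1 of 2 probes, and SLC44A4, a choline family carrier, had 14.89 ± 0.31 from 1 of 3.

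Amino acid carriers were above in 17 of 31 (54.8%), close to the 51.3% of all genes. SLC7A5, which brings in large neutral amino acids, read 15.16, 14.82 and 14.06 (14.68 ± 0.56), and SLC3A2, its partner chain, read 13.69, 13.27 and 12.87. SLC1A5, a glutamine carrier, read 13.62, 13.34 and 12.53. Array 3 was the lowest for each of the 3 genes. SLC7A11, the cystine importer that feeds glutathione synthesis, read 9.89, 9.08 and 9.19 (9.39 ± 0.44).

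Glucose and monocarboxylate carriers were above in 8 of 18. SLC2A1, the glucose importer GLUT1, read 11.75, 11.75 and 11.55 (11.68 ± 0.12), SLC16A5 had a mean of 12.94 ± 0.17, and BSG, the chaperone of lactate carriers, had 15.08 ± 0.38 from 1 of 2 probes. SLC16A1 and SLC16A3 are not analysed here. Carriers of organic cations and anions, which include those that take up platinum drugs in kidney and liver, were above in only 5 of 19. SLC22A2, the kidney cation carrier, read 7.85, 7.99 and 7.64 and was at background, whereas SLC47A1, an exporter of cations, read 10.92, 11.15 and 11.25 (11.11 ± 0.17), and SLCO4A1 had 12.81 ± 0.26. Folate, nucleoside and vitamin carriers were above in 10 of 20 (50%), close to the 51.3% of all genes.

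Pumps and channels divided by their task. Subunits of the V-type proton pump, which acidifies lysosomes, were above background in 18 of 21, and P-type ATPases in 14 of 36, led by the sodium pump beta chain ATP1B1 (15.35 ± 0.22). Aquaporins and chloride channels were above in 14 of 28 (50%), close to the 51.3% of all genes, with CLIC1 at 16.00 ± 0.02. Voltage-gated ion channels, the genes of excitable cells, were above in 19 of 91, and in 29 with a ceiling exceeded by 5% of olfactory receptor values. KCNH6, a potassium channel, had the highest signal among them, 13.62 ± 0.41, from 1 of 3 probes, the other 2 being at background.

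By area, 105 of 336 lineage genes (31.25%), 145 of 342 receptor genes (42.4%), 287 of 618 transport genes (46.4%) and 380 of 543 metabolic genes (70.0%) were above background. Against 51.3% of all genes, the lineage, receptor and transport areas thus lay lower and the metabolic area higher. These shares depend on which lists were put in each area. The lineage area holds many markers of other cell types and the whole keratin family, and the metabolic area holds the respiratory chain. Of the 61 lists, 43 were written by gene function and 18 are families matched by symbol, all with earlier results of these data known, and their shares were not tested.

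**Figure D4:**
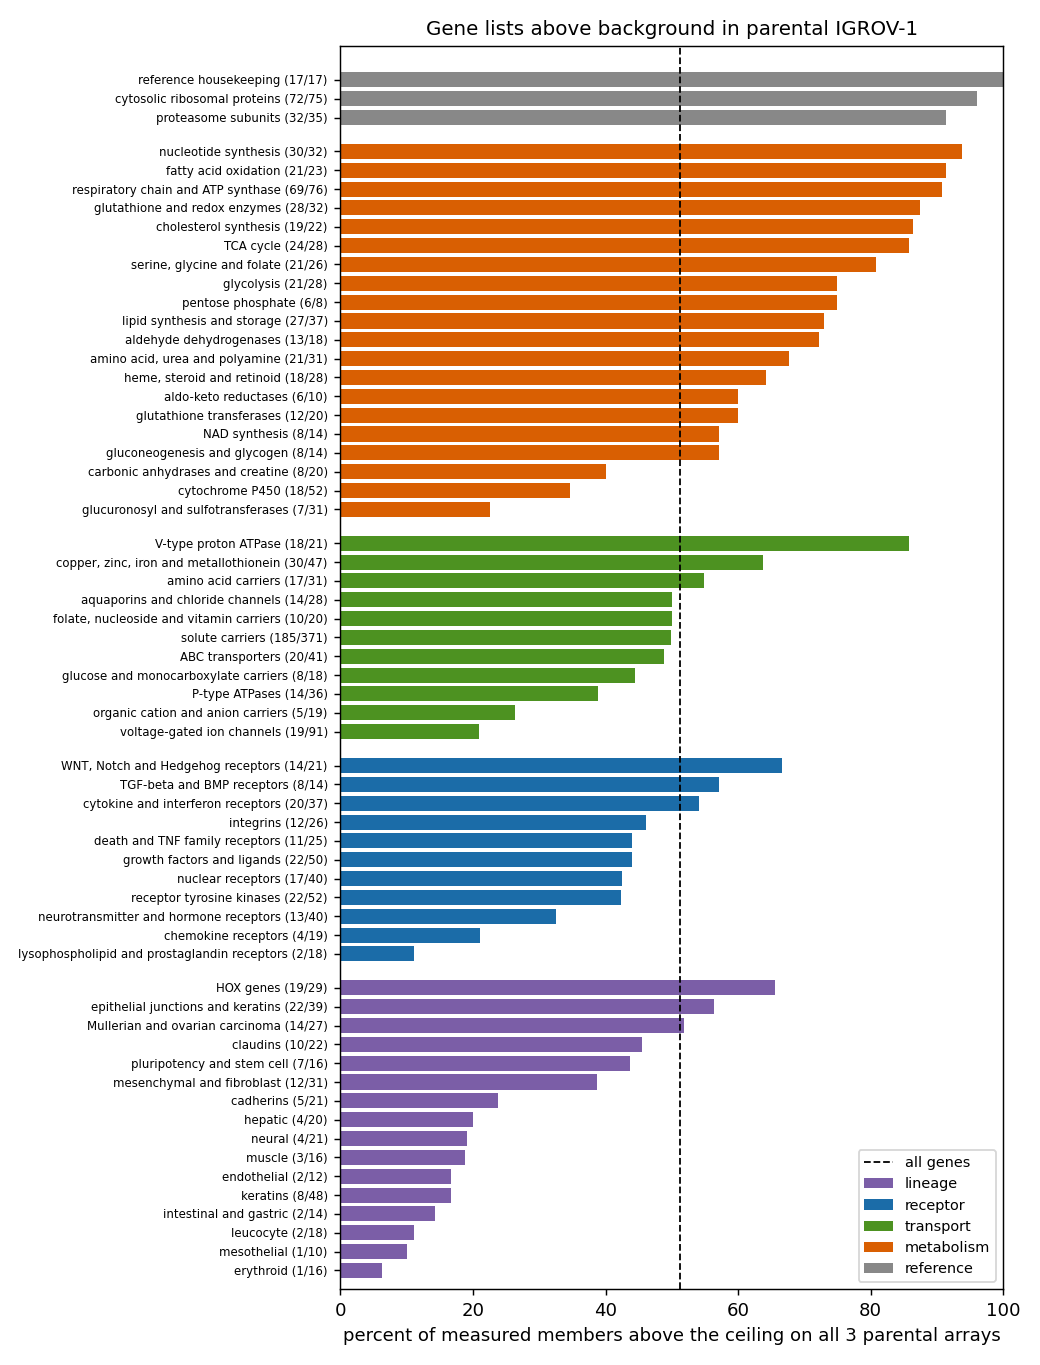
Percent of measured list members above background on all 3 parental arrays (x axis) for each of 61 gene lists (y axis, with the number above and the number measured), coloured by area, with the 51.3% of all genes as a dashed line. Most metabolic lists pass the line, and most lists of other cell types fall short of it.

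Energy metabolism genes were mostly above background. Of 76 genes of the respiratory chain and ATP synthase, 69 were above background (median level 14.06), and 24 of 28 genes of the TCA cycle were. Glycolytic genes were above in 21 of 28. LDHA, the lactate dehydrogenase chain of glycolytic cells, read 15.86, 15.89 and 15.92 (15.89 ± 0.03), and LDHB, the chain of oxidative tissues, had 15.11 ± 0.10. Both chains were thus present on all arrays. ENO1 (enolase) and TPI1 (triose phosphate isomerase) had means of 16.05 ± 0.03 and 15.94 ± 0.06, and PKM, pyruvate kinase, had 14.55 ± 0.31 with 3 of 3 probes above.

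Isoforms of the same step differed. HK1, the common hexokinase, read 13.76, 13.99 and 13.72 from 1 of 4 probes, the other 3 being at background. HK2, the insulin-regulated form, read 10.80, 10.96 and 10.67 with both probes above, and HK3 was at background. PCK2, the mitochondrial enzyme that makes phosphoenolpyruvate, read 14.65, 12.92 and 12.76, so that array 1 was higher than the other 2 by over 1.5 log2 units, while PCK1, its cytosolic counterpart of liver, and FBP1 and G6PC1, enzymes that complete glucose production, were at background. The pentose phosphate enzymes TKT and TALDO1 had means of 15.76 ± 0.13 and 15.61 ± 0.09, the list being above in 6 of 8.

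Lipid synthesis genes were above background in 27 of 37 and fatty acid oxidation genes in 21 of 23. SCD, which desaturates fatty acids, read 15.92, 16.00 and 15.81 (15.91 ± 0.10). FASN, fatty acid synthase, read 14.80, 15.26 and 14.90 (14.99 ± 0.24), and ACLY, which supplies its acetyl-CoA, had 14.86 ± 0.28. ACADVL, the first enzyme of long-chain oxidation, had 15.31 ± 0.22. Genes of both fat synthesis and fat breakdown were therefore above the ceiling on all 3 arrays. PLIN2, a lipid droplet coat protein, was at background with both probes.

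Cholesterol synthesis genes were above in 19 of 22. SQLE, squalene epoxidase, read 14.34, 14.81 and 14.69. HMGCS1, which makes the precursor of mevalonate, read 12.89, 14.55 and 14.35 (13.93 ± 0.91). For both genes array 1 was the lowest, by more than 1 log2 unit in HMGCS1.

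One-carbon and nucleotide metabolism were widely represented. Serine, glycine and folate genes were above background in 21 of 26 and nucleotide synthesis genes in 30 of 32. PHGDH and PSAT1, which make serine from a glycolytic intermediate, read 14.98, 14.05 and 13.68, and 14.90, 14.49 and 14.30. SHMT2, which passes the serine carbon to folate in mitochondria, read 15.21, 14.76 and 14.28. CBS, which uses homocysteine to make cystathionine, had a mean of 15.23 ± 0.16. In PHGDH, PSAT1 and SHMT2, array 1 was the highest and array 3 the lowest. The purine enzymes PAICS and ATIC had means of 15.59 ± 0.11 and 14.65 ± 0.16.

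In amino acid, urea and polyamine metabolism, 21 of 31 genes were above. ASS1, which makes argininosuccinate and thereby arginine, read 13.40, 13.28 and 13.44 (13.37 ± 0.08), with 2 of 3 probes above. CPS1, the first enzyme of the urea cycle, read 11.75, 12.11 and 11.72, while OTC and ARG1, its liver partners, were at background. ASNS, asparagine synthetase, read 15.81, 14.15 and 13.70, and array 1 exceeded the others by over 1.5 log2 units. PRODH, which breaks down proline, had 15.29 ± 0.13, and IDO1, which breaks down tryptophan, was at background.

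Defence against oxidants and electrophiles was above background in 28 of 32 genes of glutathione and redox metabolism and in 12 of 20 glutathione transferases. GSTP1, the pi-class transferase, read 15.89, 16.02 and 15.94 (15.95 ± 0.07), whereas the alpha-class gene GSTA1 was at background with both probes. PRDX1, NQO1, GPX4, SOD1 and TXN, enzymes that remove peroxide, quinones and superoxide or pass on reducing power, had means of 16.01 ± 0.10, 15.96 ± 0.09, 15.86 ± 0.03, 15.86 ± 0.06 and 15.69 ± 0.14. Aldehyde dehydrogenases were above in 13 of 18, with ALDH9A1 at 15.86 ± 0.10. ALDH1A1, a marker of ovarian progenitor-like cells, read 9.66, 10.23 and 10.77, and ALDH1A3 was at background. Aldo-keto reductases were above in 6 of 10 but with every probe in 2 only. AKR1C3, which reduces steroids, read 10.94, 10.90 and 11.33, and AKR1D1, a bile acid reductase of liver, had 15.31 ± 0.24 from 1 of 2 probes, the other being at 7.84.

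Drug and hormone metabolism was sparser. Cytochrome P450 genes were above background in 18 of 52 and glucuronosyl and sulfotransferases in 7 of 31. CYP26B1, which degrades retinoic acid, had a mean of 12.10 ± 0.18. CYP19A1 and CYP17A1, which make estrogens and androgens, were at background, CYP19A1 with all 4 probes. Genes of NAD synthesis were above in 8 of 14: NAPRT, which starts from nicotinic acid, had 12.39 ± 0.31, and NAMPT, which starts from nicotinamide, had 10.67 ± 0.47. QPRT, which starts from the tryptophan product quinolinic acid, read 8.07, 7.99 and 7.94 and was at background, and NNMT, which methylates nicotinamide, read 9.90, 9.53 and 9.93. Of carbonic anhydrase and creatine genes, 8 of 20 were above. CA2, a cytosolic carbonic anhydrase, read 15.25, 15.47 and 15.77, and CA12, a membrane form, read 12.50, 12.32 and 11.91 with both probes above. CA9 is not analysed here.

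The 3 parental samples were alike for most genes. Among 9663 genes above background, the gap between the highest and the lowest array had a median of 0.42 on the log2 scale and was under 0.5 for 61.6%. It reached 1, a 2-fold difference, for 469 genes (4.85%) and 2 for 9. Array 2 was the lowest in 239 of the 469 and array 3 the highest in 208. Leaving out array 1, 2 or 3 left 250, 126 and 227 such genes, so array 2 took part in most of them.

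Of the 12 genes with the widest gaps, several were highest on array 1. TRIB3, a pseudokinase induced by endoplasmic reticulum stress, read 13.82, 12.26 and 11.53, DDIT3, a stress transcription factor, read 13.50, 11.75 and 11.44, and NUPR1, a stress-induced nuclear protein, read 10.88, 8.93 and 9.01. ASNS, given above, ran the same way, and array 1 was the highest for all 4 genes. PHLDA1 read 13.42, 11.80 and 11.37, and TXNIP, a glucose-responsive arrestin, read 12.21, 10.27 and 10.65, again highest on array 1. IGFBP1, which binds insulin-like growth factors, read 10.62, 8.42 and 9.52.

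Other genes of the 12 followed another array. SCGB2A1, a secretoglobin known from mammary and uterine epithelium, read 8.85, 10.61 and 11.81, the widest gap of all. RRM2, the ribonucleotide reductase chain of dividing cells, read 10.04, 9.07 and 11.02, and TMPO, a nuclear lamina protein, read 10.39, 9.21 and 11.27. TCEA1, a transcription elongation factor, read 12.89, 10.84 and 12.42, and PGAM1, a glycolytic enzyme, read 12.48, 11.67 and 13.73. Array 2 was the lowest in these last 4 genes.

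Some lists leaned to 1 array as well, of which examples follow, and genes of a list are not independent replicates. Of 19 cholesterol synthesis genes above background, 17 were lower on array 1 than the mean of the other arrays, with a median of -0.68. Besides HMGCS1, DHCR7 read 13.04, 13.97 and 13.64, and LSS read 13.13, 13.98 and 13.91. Of 21 serine, glycine and folate genes, 14 were higher on array 1 (median 0.29), and of 17 amino acid carriers 12 were (median 0.33). Over all genes above background the same difference had a median of -0.01, and 48.3% were above 0. On array 3, 56 of 69 respiratory chain genes were higher than the mean of the other arrays, against 44.0% of all genes above background. On array 2, 16 of 19 HOX genes were, against 56.0%. Other lists were even on array 1, with 14 nucleotide synthesis genes higher and 16 lower, and 16 proteasome genes each way. These are descriptions of 3 samples, and the cause of the lean was not tested.

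**Figure D5:**
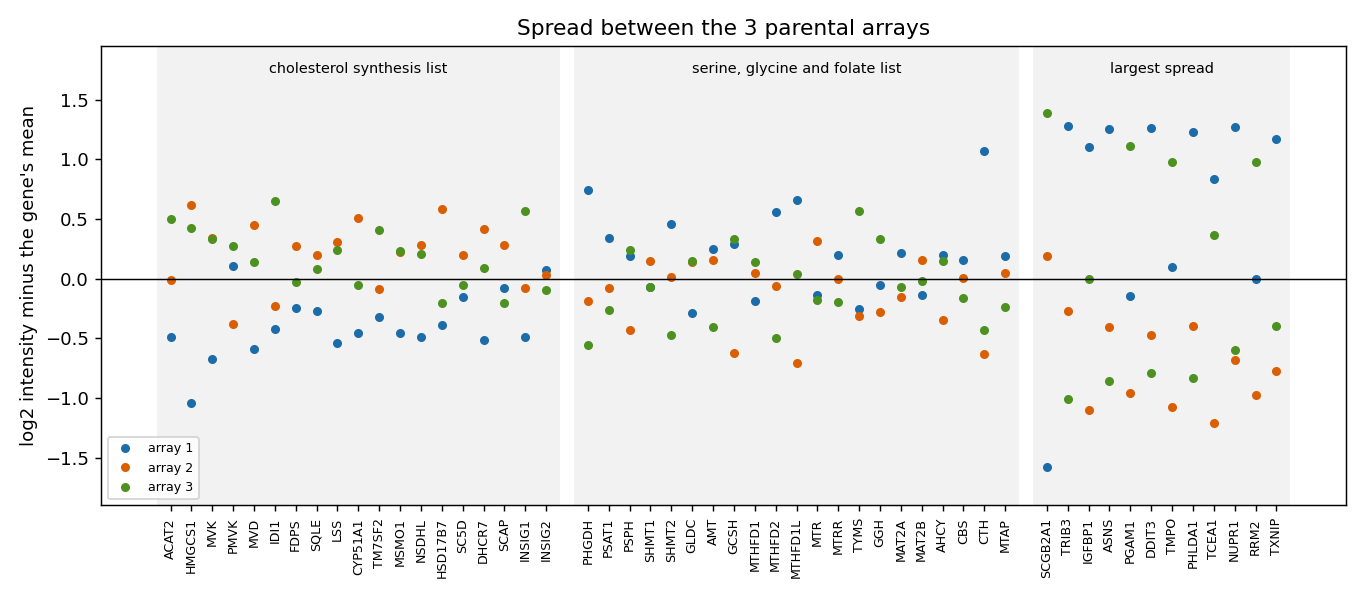
Log2 intensity on parental arrays 1, 2 and 3 (points) minus the mean of the gene (y axis) for the cholesterol synthesis genes and the serine, glycine and folate genes above background and for the 12 genes with the widest gap between arrays (x axis). Array 1 is low in 17 of 19 cholesterol genes against the mean of the others and high in ASNS, TRIB3, DDIT3 and NUPR1.

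Different probes of 1 gene often disagreed. Of 6132 genes with more than 1 probe, 1451 had every probe above background, 2176 had every probe at background, and 1876 (30.6%) had at least 1 above and at least 1 at background. Even among 169 such genes with a mean over 15, 41 had another probe at background. ITIH5, one of the first 20 genes, was the plainest case: its 5 probes had means of 16.08, 7.73, 7.68, 7.57 and 7.49. CLUAP1, a protein of cilia, had all 5 probes above, but 4 of them only between 8.92 and 10.57. For genes with a lone probe, no second probe could show such disagreement. Among these were ESR1, PGR, MUC16, MSLN, KRT8, CDH2, ABCC2 and ABCG2, whose low values therefore rest on that probe. The cause of the disagreement between probes was not tested.

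Sequence around the annotated start differed between the classes of genes. For 14080 protein-coding genes a RefSeq window of 250 bases before to 50 after the start was found. Genes above background (7911 windows) had a median GC content of 65.7% and a CpG observed over expected ratio of 0.853, while genes at background (5521) had 58.0% and 0.486, and olfactory receptors (289) had 37.7% and 0.12. The motif TATAAA, searched for on the coding strand in the 250 bases before the start, was in 3.27% of the first, 10.99% of the second and 6.39% of all windows. A run of at least 5 C or T that covers the start was found in 9.13% of genes above background, 6.70% of those at background and 8.09% of all. It was in 70.5% (43 of 61) of ribosomal protein genes above background, of the kind printed above for RPS10 and RPL18, and in 17.2% (10 of 58) of the other genes among the first 100. The narrower form, a C at the start followed by 4 more C or T, was found in 67.2% of the ribosomal protein genes and 4.67% of all. These letters in a window are a description of the sequence and say nothing of which factor acts there.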

How the data were processed

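Total RNA of 3 parental IGROV-1 samples had been labelled as biotinylated cRNA and hybridized to Illumina bead arrays, and BeadStudio is named, without a version, per the submitters' processing notes. For 48803 probes the authors deposited an intensity each, not logged. Sorted values of the 3 columns differed by at most 0.486%, as quantile normalized values do, and with a lowest value of 125 they had not been brought to 0 by background subtraction. A second deposited table has 9 array columns that no label pairs with a sample, and they are not used here. For arrays, depth is their number, 3, which limits the precision of every value.

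The log2 of the deposited intensity was taken. Of the probes, 28098 had 1 gene symbol and were used, 13 had several and 20692 had none in the platform annotation and were left out. The 28098 gave 18852 genes, 18828 of them in the RefSeq gene table. The ceiling and the classes are defined above. No test was run, since 1 line is described without a contrast, and no p-value is given.

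Genes named are the first 20, up to 6 above and 6 at background per list, the 12 with the widest gap between arrays, the 3 on each side of the ceiling, the defining cell type markers and a fixed set of genes named whatever their value. Members and the 61 lists (1942 genes) were chosen with earlier results of these data known. Alternatives were other ceilings, the dimmest probe, normexp in limma 3.58.1 (R 4.3.3, offset 50) and leaving out each array. Python 3.11.15, numpy 2.4.6, pandas 2.3.3 and matplotlib 3.10.9 were used, and scripts were tested on simulated data.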

Additional observations from a re-analysis of the deposited data

How the results depend on the processing

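No paired analysis was possible because 1 group is described and no value comes from a test between groups. The count of 9663 genes above background ran from 8491 with a ceiling exceeded by 1% of olfactory receptor values to 10718 with one exceeded by 5%. It was 9151 with taste receptor, hair keratin-associated and beta-defensin probes as background, 7479 with the dimmest probe of each gene, and between 9712 and 9985 without 1 of the arrays. The median level of the genes named whatever their value was 11.08, and 9.25 with the dimmest probe. Of the first 100 genes, 47 were among the first 100 by the dimmest probe, and 91 to 95 were without 1 of the arrays. The 469 genes that differed 2-fold between arrays were 126 to 250 without 1 of the arrays, where fewer arrays give a smaller gap by construction, 630 after normexp and 490 over all genes. EGFR, ERBB2, ERBB3, FGFR3, ATP7B, HK1, ASS1 and PPARG were at background by their dimmest probe, and AXL, CDH2, NR3C1, ABCC2 and QPRT exceeded a ceiling set by 5% of olfactory receptor values on 1 or 2 arrays. The cause was not tested. Of 61 list counts, 16 moved by over 1.5 times with the dimmest probe, 7 and 5 with the ceilings set by 5% and 1%, and 0 with 1 ceiling for each array. Without 1 of the arrays, only counts of the mesothelial list moved, to 2 without array 1 and 3 without array 2.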

Other observations

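Some genes outside the lists or the naming rule were singled out after their values were seen, and are given as values only. LAIR1, an inhibitory receptor of leucocytes, read 16.04, 16.07 and 15.99 on arrays 1, 2 and 3 from 1 of 2 probes. SCGB1D2, another secretoglobin, read 9.38, 10.03 and 11.32, and thus had the same order of arrays as SCGB2A1. DEFB1, an epithelial defensin, read 14.40, 14.70 and 15.51. VEGFA, the vascular growth factor, read 11.39, 9.93 and 9.90, and CTH, which makes cysteine from cystathionine, read 12.53, 10.83 and 11.03. Both were highest on array 1, as were ASNS and TRIB3. The mevalonate enzymes MVK, with 9.96, 10.98 and 10.96, and MVD, with 10.89, 11.93 and 11.62, were lowest on array 1, as was HMGCS1. Unlike these genes, TUBB3, a tubulin of neurons, and NES, the filament protein nestin, fall under the naming rule. TUBB3 read 11.47, 12.41 and 12.65, the highest mean of the neural list (12.18). NES read 9.94, 11.34 and 10.93, and both genes were lowest on array 1.

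All 6 aldo-keto reductase genes above background were higher on array 3 than the mean of the other arrays, with a median of 0.44, against 44.0% of all genes above background and a median of -0.04. In addition, 9 of 10 folate, nucleoside and vitamin carriers above background were lower on array 1, with a median of -0.44, where 48.3% of all genes above background were higher.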
